A study of Mus musculus with 16 samples.

Results

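The transcripts of 9 transcription factors that direct differentiation of the epidermis were followed in *Sas-4* conditional mutant mouse skin. The factors are *Klf4*, *Zfp750*, *Grhl3*, *Ovol1*, *Dlx3*, *Gata3*, *Cebpa*, *Cebpb* and *Tfap2a*. They were taken by gene symbol, and all 9 were found among the 49452 genes of each expression table. RNA-Seq was performed on 8 libraries of unplated back skin keratinocytes from newborn pups (P0), frozen before RNA isolation, and on 8 libraries of back skin epidermal sheets from embryos at E13.5, with 4 mutant and 4 control libraries per stage. Mutants carried *K14-Cre* (tg/wt), which drives Cre in stratified epithelia, and 2 floxed *Sas-4* alleles (fl/fl). Controls carried 1 floxed allele (fl/wt), and every library of the series thus carries at least 1 floxed *Sas-4* allele. *K14-Cre* was present in P0 controls 2 and 3 and absent from P0 controls 1 and 4 and from all 4 libraries titled control at E13.5, so an effect of Cre itself and loss of *Sas-4* cannot be told apart at E13.5. The labels give the strain as FVB/C57BL6, and none of them says whether libraries of 1 group came from separate animals, so the p-values measure the spread between libraries.

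*Sas-4*, which encodes a protein needed to build centrioles, is listed as *Cenpj*. At P0 it was read at 1.52, 1.41, 1.35 and 1.09 FPKM (a fragment count scaled by gene length and by the mapped reads of the library) in mutants 1 to 4, against 4.35, 3.35, 3.22 and 4.29 FPKM in controls 1 to 4. At E13.5 it was read at 9.17, 8.66, 9.02 and 8.74 FPKM in the libraries titled mutant 1 to 4, against 3.72, 3.85, 3.56 and 3.66 FPKM in those titled control 1 to 4. The targeted transcript was therefore lower in mutants at P0 and higher in the libraries titled mutant at E13.5. The column names of the E13.5 table give all 8 libraries the opposite genotype from their titles and genotype tags. Genes that p53 switches on in cell death ran opposite ways as well. *Bbc3* lay between 13.4 and 18.9 FPKM in P0 mutants and between 6.65 and 11.1 FPKM in P0 controls, but between 1.16 and 1.84 FPKM in libraries titled mutant and between 8.04 and 10.1 FPKM in libraries titled control at E13.5. *Bax* lay between 86.8 and 122 FPKM in P0 mutants and between 55.4 and 62.4 FPKM in P0 controls, but between 74.9 and 78.4 FPKM in libraries titled mutant and between 150 and 169 FPKM in libraries titled control at E13.5, and *Pmaip1* had the same directions (1.5 at P0 and -1.49 at E13.5 on the log2 scale). By column name, *Cenpj* is lower in E13.5 mutants and *Bbc3*, *Bax* and *Pmaip1* are higher, the same directions as at P0. E13.5 groups are called by their titles below, and each E13.5 difference has the opposite sign if the column names are right. Basal keratinocyte keratins were abundant in all groups. *Krt5* averaged 9388 FPKM in P0 mutants and 9248 FPKM in P0 controls, *Krt14* 13951 FPKM in P0 mutants and 7343 FPKM in P0 controls, and *Krt15* 136 FPKM in P0 mutants and 1588 FPKM in P0 controls. Of 12 basal markers at P0, 3 were higher, 1 (*Krt15*) was lower and 8 were not called (median -0.06). At E13.5 *Krt5* averaged 1170 FPKM in libraries titled mutant and 1230 FPKM in libraries titled control. Genes of at least 1 FPKM numbered 12407 to 12536 in P0 mutants, 12952 to 13189 in P0 controls, 12746 to 12889 in libraries titled mutant and 12726 to 12815 in libraries titled control. Y-linked transcripts were read in 3 P0 mutants and 1 P0 control, and in 1 library of each E13.5 group.

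Epidermal cells leave the basal layer and in time stop dividing, though in embryonic skin the study saw suprabasal cells divide. In succession, differentiating cells switch on keratins and junction proteins of the spinous layer and envelope proteins and lipid enzymes of the granular layer. Transcription factors set the order of this program. *Cebpa* and *Cebpb* encode leucine zipper proteins that act together in commitment of keratinocytes and their exit from the cell cycle. *Tfap2a* encodes AP-2alpha, a factor of the surface ectoderm and its derivatives. *Klf4*, *Grhl3* and *Zfp750* act late, in the granular layer and in formation of the skin barrier, and *Ovol1* encodes a zinc finger repressor that restrains proliferation of epidermal progenitors. *Dlx3* encodes a homeodomain protein of both the suprabasal epidermis and the hair follicle. *Gata3* encodes a zinc finger protein of epidermal barrier formation, of the inner root sheath of the hair and, outside keratinocytes, of T cells.

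The places of the 9 genes on mm10 follow the gene spans deposited with the expression values. *Klf4* (chromosome 4, 55527143 to 55532466, minus strand) and *Grhl3* (chromosome 4, 135541888 to 135573630, minus strand) share a chromosome, as do *Dlx3* (chromosome 11, 95120119 to 95125296, plus strand) and *Zfp750* (chromosome 11, 121510978 to 121519333, minus strand). *Gata3* (chromosome 2, 9857078 to 9890034, minus strand) shares one with *Cebpb* (chromosome 2, 167688915 to 167690418, plus strand). *Cebpa* lies on chromosome 7 (35119293 to 35121928, plus strand), *Tfap2a* on chromosome 13 (40715675 to 40733823, minus strand) and *Ovol1* on chromosome 19 (5549137 to 5560575, minus strand). The GENCODE annotation places *Tmem189* over *Cebpb* and *Tbcd* over *Zfp750*, each on the opposite strand. *Tmem189* reached 24.0 FPKM at P0 and 25.6 FPKM at E13.5, and *Tbcd* 36.0 FPKM at P0 and 34.0 FPKM at E13.5. The sources used here do not say whether fragments were counted by strand, so fragments of these 2 pairs may be shared.

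Promoter windows of RefSeq (GRCm38.p6, the 250 bases before a start site) were matched by symbol for 6 of the 9 genes. *Ovol1*, *Dlx3* and *Zfp750* had no entry. The windows of *Klf4* and *Grhl3* are shown because both genes were higher in P0 mutants, and those of *Gata3* and *Cebpa* because these had the largest E13.5 differences of the 9 genes. Capitals mark matches, on either strand, to letters that the families of these same factors are known to bind, GCCNNNGGC for AP-2, GGGTGNGG and the GC box GGGCGG for KLF proteins, and to the TATA box TATAAA.
*Klf4* (chr4:55532476-55532725, minus strand): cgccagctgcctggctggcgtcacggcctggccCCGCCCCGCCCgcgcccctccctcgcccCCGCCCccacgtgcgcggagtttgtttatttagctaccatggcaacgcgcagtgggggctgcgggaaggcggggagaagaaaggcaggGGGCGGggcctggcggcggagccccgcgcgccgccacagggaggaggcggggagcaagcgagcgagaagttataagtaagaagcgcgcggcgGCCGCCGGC
*Grhl3* (chr4:135573633-135573882, minus strand): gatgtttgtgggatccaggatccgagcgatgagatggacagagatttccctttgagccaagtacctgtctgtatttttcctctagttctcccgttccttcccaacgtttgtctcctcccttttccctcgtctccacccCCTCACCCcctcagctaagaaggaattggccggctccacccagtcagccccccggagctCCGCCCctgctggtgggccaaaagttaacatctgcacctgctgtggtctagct
*Gata3* (chr2:9878601-9878850, minus strand): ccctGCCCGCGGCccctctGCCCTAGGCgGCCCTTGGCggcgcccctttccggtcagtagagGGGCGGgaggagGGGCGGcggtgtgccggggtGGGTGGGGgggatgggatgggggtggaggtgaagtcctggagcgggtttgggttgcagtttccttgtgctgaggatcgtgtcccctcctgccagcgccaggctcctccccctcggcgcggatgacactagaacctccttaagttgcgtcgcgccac
*Cebpa* (chr7:35119043-35119292, plus strand): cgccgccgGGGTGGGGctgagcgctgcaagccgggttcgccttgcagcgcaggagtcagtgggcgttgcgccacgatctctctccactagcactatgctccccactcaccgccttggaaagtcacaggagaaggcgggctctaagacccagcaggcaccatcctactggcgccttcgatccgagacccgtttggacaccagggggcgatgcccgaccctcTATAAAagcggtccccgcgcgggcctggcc
The RefSeq start of *Gata3* lies inside its gene span given above. The *Klf4* window is 74.0% G and C and holds 1 AP-2 match, which ends at the base before the start site, and 4 GC boxes, 2 of which overlap by 1 base. The *Gata3* window is 70% G and C and holds 3 AP-2 matches, 1 KLF match and 2 GC boxes. The *Cebpa* window (66.4% G and C) holds 1 KLF match and a TATA box that begins 30 bases before the start site, and the *Grhl3* window (56.0%) holds 1 KLF match and 1 GC box. The median window of all genes was 52.4% G and C. Over 32851 mouse windows of the same length, 13.7% hold the AP-2 letters, 14.9% the KLF letters, 32.7% the GC box and 12.4% the TATA box. Of the 6 genes with windows, 2 hold the AP-2 letters, 3 the KLF letters, 5 the GC box and 1 the TATA box. None of the 6 holds the letters AGATAA (bound by the family of *Gata3*, in 10.0% of all windows), TTNNGCAA (C/EBP, 9.6%), AACCGGTT (Grainyhead-like, 0.1%), TGANTCA (AP-1, 6.7%) or a p53 half-site (7.1%). These matches are descriptions of the letters and not sites of binding.

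**Figure D1:**
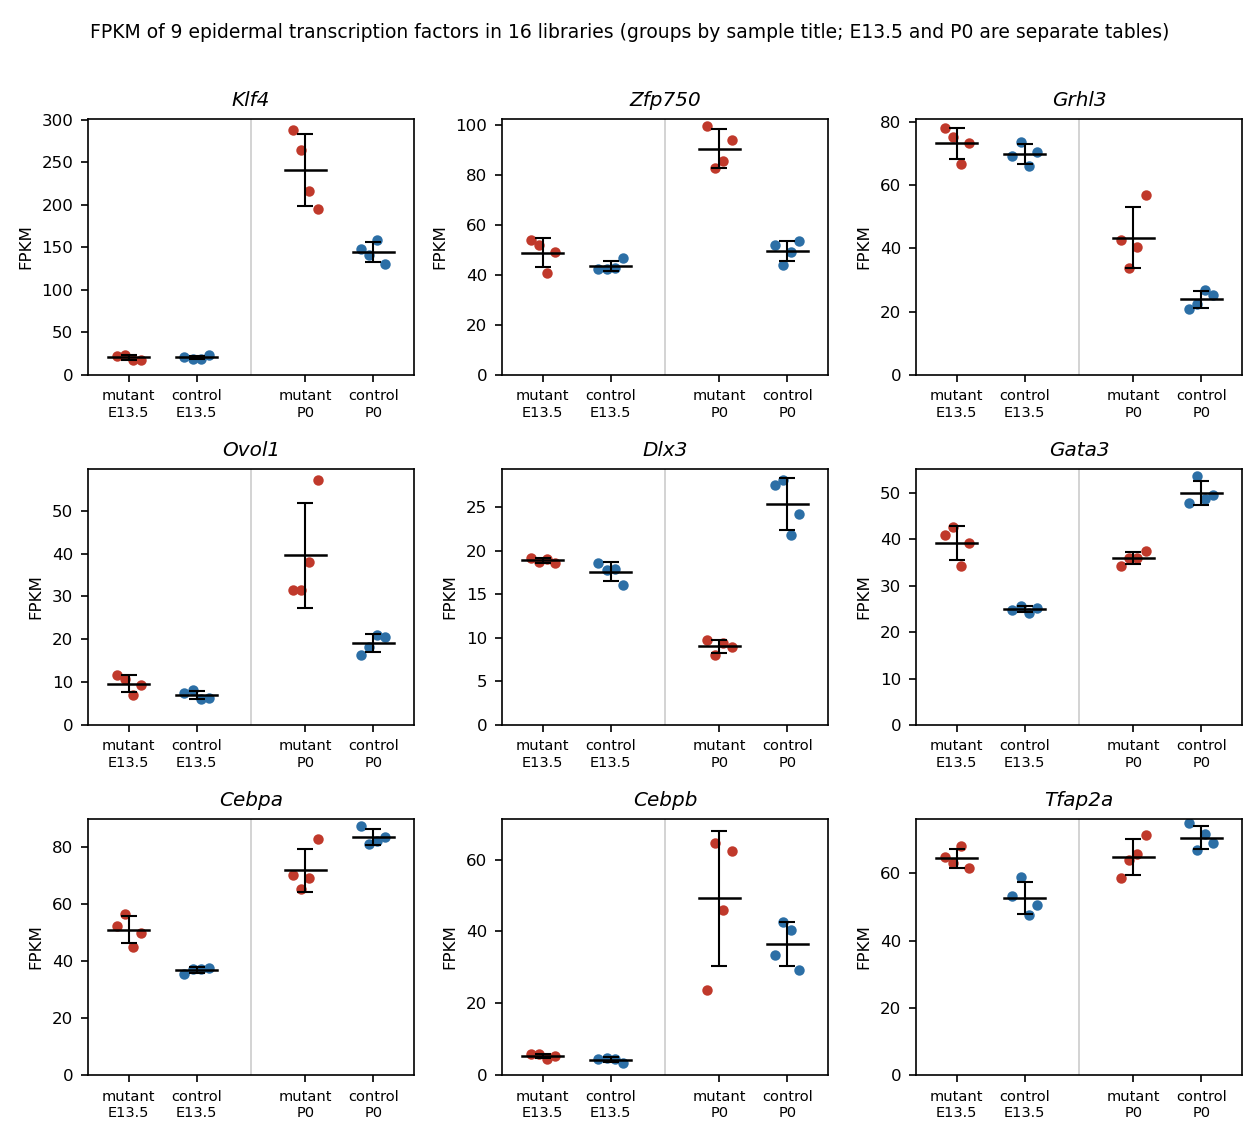
FPKM of the 9 genes in each library (points), with group means and SD (bars, n = 4), for mutants (red) and controls (blue) at E13.5, grouped by title, and at P0. The *Dlx3* panel shows all 4 P0 mutants between 8.07 and 9.80 FPKM, below all 4 P0 controls, and the *Klf4* panel shows all 4 P0 mutants at 196 FPKM or more and all P0 controls at 159 FPKM or less.

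All 9 genes were expressed at both stages. In P0 mutants *Klf4* had the highest mean (241 FPKM), *Zfp750* (90.6 FPKM) the next and *Dlx3* (9.05 FPKM) the lowest. Neighbours between *Zfp750* and *Gata3* in the P0 mutant order overlapped between libraries. In P0 controls *Klf4* (145 FPKM) was followed by *Cebpa* (83.3 FPKM) and *Tfap2a* (70.6 FPKM), and *Ovol1* (19.0 FPKM) was lowest, its libraries overlapping those of *Grhl3* (23.8 FPKM), as those of *Grhl3* did with *Dlx3* (25.4 FPKM). *Zfp750* was thus the gene of second rank in all 4 P0 mutants and *Cebpa* in all 4 P0 controls. At E13.5 *Grhl3* had the highest mean, at 73.2 FPKM in the libraries titled mutant, where it overlapped *Tfap2a* (64.5 FPKM), and 69.7 FPKM in those titled control, and *Cebpb* came last, at 5.32 and 4.28 FPKM in the libraries titled mutant and control. No neighbours in the E13.5 order overlapped in the libraries titled control. Each stage has its own table, tissue preparation and set of libraries, so levels of the 2 stages stand side by side only as values.

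The first comparison asked how the factors differ in newborn keratinocytes of *Sas-4* mutants. *Klf4*, *Zfp750*, *Grhl3* and *Ovol1* rose in P0 mutants by 1.67 to 2.08 times. *Dlx3* and *Gata3* fell to 0.356 and 0.720 of their control means. *Cebpa*, *Cebpb* and *Tfap2a* did not pass the test. The test was limma's two-sided one on log2(FPKM + 1), with p-values adjusted by Benjamini-Hochberg over all 13033 genes tested and called under 0.05. By this rule 4 of the 9 genes were higher and 2 were lower, where 11.7% of all genes tested were higher and 30.7% lower (42.3% in either direction, 1520 higher and 3995 lower). The median of all genes was -0.15 on this scale. With median-of-ratios scaling, which sets that median to 0, the split over all genes was 2459 higher and 2520 lower, and with quantile normalization it was 2320 higher and 2480 lower. The members' calls stayed at 4 higher and 2 lower with median-of-ratios scaling, and at 4 higher and 3 lower with quantile normalization.

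*Zfp750*, a zinc finger factor of terminal differentiation, was read at 99.6, 82.7, 85.8 and 94.1 FPKM in P0 mutants 1 to 4, against 51.9, 44.1, 49.1 and 53.5 FPKM in P0 controls 1 to 4. The lowest mutant stood well above the highest control. Its log2 fold change was 0.85 (standard error, SE, of 0.09, limma adjusted p = 8.98e-05). *Klf4*, a Krüppel-like factor of the skin barrier, was read at 288, 264, 216 and 196 FPKM in P0 mutants 1 to 4, against 148, 141, 159 and 131 FPKM in P0 controls 1 to 4. Mutant libraries spread more widely than control libraries (241 ± 42.4 against 145 ± 11.8 FPKM, SD, n = 4 each) and still lay above all of them (log2 fold change 0.72, SE 0.13, limma adjusted p = 0.00179).

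*Grhl3*, a Grainyhead-like factor that controls transglutaminase and other barrier genes, was read at 42.5, 33.9, 40.5 and 56.7 FPKM in P0 mutants 1 to 4, against 20.7, 22.5, 26.9 and 25.3 FPKM in P0 controls 1 to 4. The groups did not overlap, and mutant 4 was the highest library (log2 fold change 0.82, SE 0.15, limma adjusted p = 0.00215). *Ovol1* was read at 31.6, 31.4, 38.0 and 57.2 FPKM in P0 mutants 1 to 4, against 16.4, 18.2, 21.0 and 20.5 FPKM in P0 controls 1 to 4. Mutant 4 was again the highest, and the other 3 mutants also lay above all controls (log2 fold change 0.98, SE 0.18, limma adjusted p = 0.00236). Mutant 4 was the highest mutant for 5 of the 9 genes. Without it, the *Ovol1* and *Grhl3* differences were still past the threshold.

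*Dlx3* was read at 9.80, 8.07, 9.36 and 8.96 FPKM in P0 mutants 1 to 4, against 27.5, 28.1, 21.8 and 24.2 FPKM in P0 controls 1 to 4. It fell in every mutant library below every control library (log2 fold change -1.39, 95% interval -1.62 to -1.16, limma adjusted p = 1.58e-05). *Dlx3* was the 1 gene of the 9 past the study's own thresholds at P0, a fold change of at least 2 and an unadjusted p of at most 0.05 on this scale, which 7.96% of all genes tested passed. *Ovol1* had a ratio of mean FPKM of 2.08 but a log2 fold change of 0.98 on the log2(FPKM + 1) scale, just short of that fold. *Gata3* was read at 34.3, 36.1, 36.0 and 37.4 FPKM in P0 mutants 1 to 4, against 47.8, 53.7, 48.7 and 49.6 FPKM in P0 controls 1 to 4. The 4 mutant libraries differed little among themselves (36.0 ± 1.27 FPKM, SD, n = 4, against 50.0 ± 2.62 FPKM in controls), and the groups did not overlap (log2 fold change -0.46, SE 0.07, limma adjusted p = 0.000604).

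Both genes that fell are also expressed in the hair follicle, and transcripts of hair cells fell at P0 too. All 9 tested markers of hair follicle progenitors, among them *Lhx2* and *Lgr5*, were lower, with summed levels of 30.9 to 52.4 FPKM in P0 mutants and 207 to 257 FPKM in P0 controls. All 11 tested markers of the hair shaft and inner root sheath, among them *Krt25*, were lower, with sums of 13.2 to 18.8 FPKM in P0 mutants and 114 to 278 FPKM in P0 controls. All 5 tested T cell markers were lower as well, *Cd3d*, *Cd3e* and *Cd3g* included, with sums of 6.49 to 9.02 FPKM in P0 mutants and 17.8 to 30.4 FPKM in P0 controls, and 14 of 14 myeloid and Langerhans cell markers were lower (81.4 to 103 FPKM in P0 mutants and 242 to 368 FPKM in P0 controls). In bulk RNA, fewer cells of a type and less RNA per cell cannot be told apart. The part of these cells in the P0 differences of the 9 genes, rises as well as falls, was not tested. Fibroblast markers summed to 112 to 225 FPKM in P0 mutants and to 454 to 553 FPKM in P0 controls, with 3 of 4 lower. *Postn* and *Dcn* made up most of these sums. *Postn* averaged 44.2 FPKM in P0 mutants and 282 FPKM in P0 controls, and *Dcn* 124 FPKM and 208 FPKM. The collagens were low, with *Col1a2* at 1.61 FPKM in P0 mutants and 6.49 FPKM in P0 controls. *Col3a1* was at 0.748 FPKM and 2.65 FPKM and was not called. Melanocyte markers moved the other way, with 5 of 8 higher and sums of 315 to 676 FPKM in P0 mutants and 219 to 291 FPKM in P0 controls. With median-of-ratios scaling, 4 of 5 T cell, 13 of 14 myeloid and 2 of 4 fibroblast markers were lower and 7 of 8 melanocyte markers higher, and with quantile normalization 4 of 5, 12 of 14 and 3 of 4 were lower and 6 of 8 higher. Both hair lists stayed lower in all tested markers under both scalings.

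*Cebpa* was read at 70.1, 65.0, 68.9 and 82.7 FPKM in P0 mutants 1 to 4, against 87.1, 81.0, 81.8 and 83.3 FPKM in P0 controls 1 to 4. Mutant 4 lay among the controls and the other 3 lay below them (log2 fold change -0.22, 95% interval -0.41 to -0.03, limma adjusted p = 0.0596). Without mutant 4 the difference passed the threshold (-0.29, adjusted p = 0.00281), and with median-of-ratios scaling it was -0.05 (adjusted p = 0.676). *Cebpb*, its relative, was read at 23.8, 64.6, 46.1 and 62.4 FPKM in P0 mutants 1 to 4, against 33.5, 42.6, 40.3 and 29.3 FPKM in P0 controls 1 to 4. Mutant 1 was the lowest of all 8 libraries and the other 3 mutants were the highest (log2 fold change 0.34, 95% interval -0.30 to 0.99, limma adjusted p = 0.362). Without mutant 1 the difference was 0.65 (adjusted p = 0.0138). *Tfap2a* was read at 58.6, 63.9, 65.7 and 71.4 FPKM in P0 mutants 1 to 4, against 74.8, 67.01, 71.6 and 69.01 FPKM in P0 controls 1 to 4. These groups overlapped (log2 fold change -0.12, 95% interval -0.30 to 0.05, limma adjusted p = 0.231), and the sign turned with median-of-ratios scaling (0.04).

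For 6 of the 9 genes the P0 groups did not overlap, where this held for 43.5% of all genes tested. An exact two-sided permutation test of mean FPKM over the 70 assignments of 4 against 4 gave these 6 genes p = 0.0286, the smallest value the design allows. The same exact test gave p = 0.0857 for *Cebpa*, 0.114 for *Tfap2a* and 0.257 for *Cebpb*. Compared with the P0 controls that carry *K14-Cre* alone, the same 6 genes were called in the same directions, with log2 fold changes of -1.36 for *Dlx3*, -0.50 for *Gata3*, 0.67 for *Klf4*, 0.94 for *Zfp750*, 0.77 for *Grhl3* and 0.94 for *Ovol1*.

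**Figure D2:**
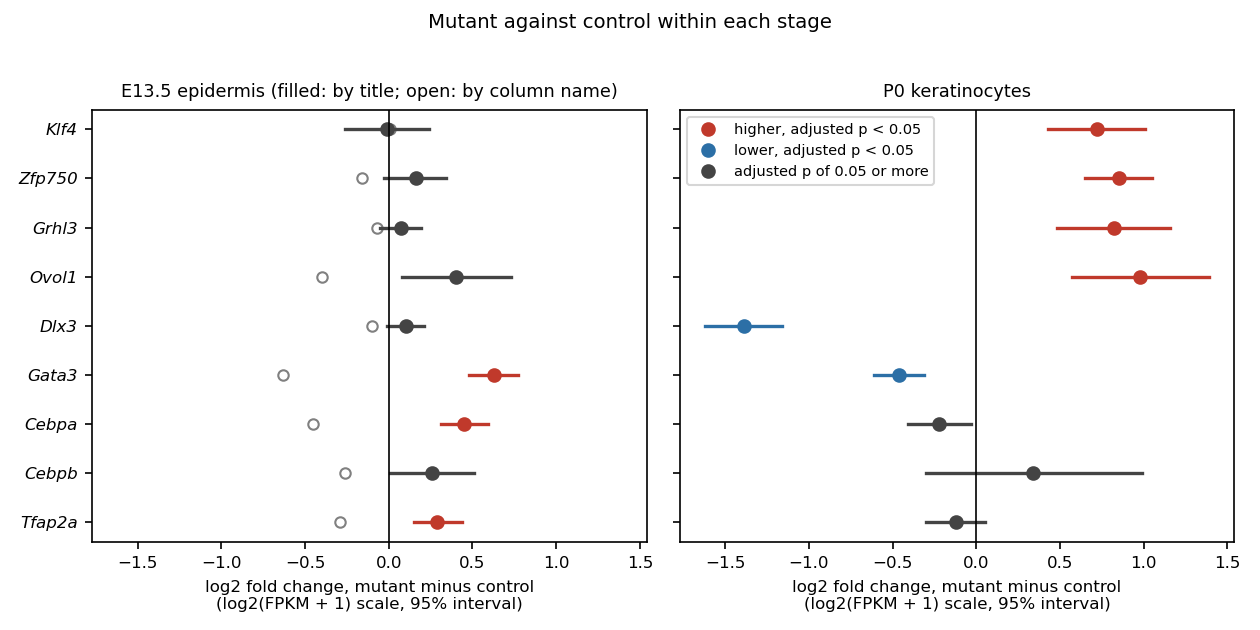
Log2 fold changes, mutant minus control, with 95% intervals for the 9 genes at E13.5 (left) and P0 (right), coloured by the limma adjusted p (red higher, blue lower, grey at or above 0.05). Open circles give the E13.5 values grouped by column name. *Dlx3* is farthest to the left at P0 (-1.39), and *Gata3* lies at 0.63 by title at E13.5 and at -0.46 at P0.

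The second comparison asked the same of E13.5 epidermis, where the spinous layer is only beginning to form. *Gata3*, *Cebpa* and *Tfap2a* were higher in the libraries titled mutant by 1.57, 1.38 and 1.23 times, and the other 6 genes did not pass the test. No member was lower by limma, also at an unadjusted p under 0.05 (0 of 9). By column name the same 3 genes were lower and none was higher. By title, 11.8% of the 12866 genes tested were higher and 13.4% lower (25.2% in either direction), and no member passed the study's own thresholds, which 1.13% of all genes did.

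*Gata3* was read at 40.8, 42.7, 34.1 and 39.2 FPKM in the libraries titled mutant 1 to 4, against 24.8, 25.6, 24.1 and 25.3 FPKM in those titled control 1 to 4. The lowest library titled mutant lay well above the highest titled control (log2 fold change 0.63 by title and -0.63 by column name, SE 0.06, limma adjusted p = 0.000243). *Cebpa* was read at 52.3, 56.3, 45.0 and 49.8 FPKM in the libraries titled mutant 1 to 4, against 35.3, 37.0, 37.1 and 37.5 FPKM in those titled control 1 to 4. These groups did not overlap either (0.45 by title and -0.45 by column name, SE 0.06, limma adjusted p = 0.00116). *Tfap2a* was read at 64.9, 63.2, 68.2 and 61.7 FPKM in the libraries titled mutant 1 to 4, against 53.2, 58.8, 47.6 and 50.6 FPKM in those titled control 1 to 4. The groups stood close but apart (0.29 by title and -0.29 by column name, SE 0.06, limma adjusted p = 0.0102).

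Titled controls 3 and 4 carry the label number 67, which the other 6 E13.5 libraries do not. Without these 2 libraries *Tfap2a* no longer passed (0.20, adjusted p = 0.076) and *Gata3* and *Cebpa* still did. For *Gata3*, whose transcript T cells also hold, the T cell markers *Cd3d* and *Cd3g* were at 0 in all 8 libraries. *Lck*, the 1 tested T cell marker, was higher in the libraries titled mutant (14.8 ± 0.230 against 12.7 ± 0.845 FPKM, SD, n = 4 each). Fibroblast markers summed to 433 to 449 FPKM in the libraries titled mutant and to 253 to 286 FPKM in those titled control, with *Postn* and *Col1a2* higher among 7 tested. Most of that gap was *Postn* (308 FPKM in the libraries titled mutant and 149 FPKM in those titled control), and *Dcn* averaged 98.7 FPKM in the libraries titled mutant and 99.7 FPKM in those titled control. Hair shaft and inner root sheath markers summed to 6.91 to 8.44 FPKM in the libraries titled mutant and to 10.4 to 11.7 FPKM in those titled control, with *Krt71*, *Tchh* and *Hoxc13* lower among 4 tested and *Krt25* at 0. Periderm markers summed to 557 to 660 FPKM in the libraries titled mutant and to 647 to 775 FPKM in those titled control, with 4 of 8 lower, and melanocyte markers to 48.6 to 49.7 FPKM in the libraries titled mutant and to 64.5 to 76.8 FPKM in those titled control, with 5 of 7 lower. Transcripts of these lists do not show by themselves that cells of each type were present. The part of such cells in the differences was not tested.

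*Dlx3* was read at 19.2, 18.7, 19.1 and 18.6 FPKM in the libraries titled mutant 1 to 4, against 18.6, 17.7, 17.9 and 16.01 FPKM in those titled control 1 to 4. The groups just missed each other, but the difference was small (log2 fold change 0.10 by title, 95% interval -0.01 to 0.21, limma adjusted p = 0.154). *Ovol1* was read at 11.5, 10.8, 6.98 and 9.21 FPKM in the libraries titled mutant 1 to 4, against 7.37, 8.05, 6.06 and 6.35 FPKM in those titled control 1 to 4. Titled mutant 3 lay among the libraries titled control (0.40 by title, 95% interval 0.08 to 0.73, limma adjusted p = 0.0668). *Zfp750* was read at 53.9, 52.0, 40.6 and 49.3 FPKM in the libraries titled mutant 1 to 4, against 42.5, 42.3, 42.7 and 46.6 FPKM in those titled control 1 to 4. Titled mutant 3 was below all libraries titled control (0.16 by title, 95% interval -0.03 to 0.34, limma adjusted p = 0.186).

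Titled mutant 3 was the lowest of its group for 7 of the 9 genes. Without it, *Ovol1* (0.54, limma adjusted p = 0.0114) and *Zfp750* (0.24, limma adjusted p = 0.0118) passed by title and the count of members called was 5. *Klf4*, which stood 0.72 higher at P0, was read at 22.7, 23.7, 17.4 and 17.7 FPKM in the libraries titled mutant 1 to 4, against 20.5, 19.0, 19.0 and 23.3 FPKM in those titled control 1 to 4. The means were 20.4 ± 3.29 FPKM in the libraries titled mutant and 20.4 ± 2.002 FPKM in those titled control (SD, n = 4 each, -0.01 by title, 95% interval -0.26 to 0.24, limma adjusted p = 0.959). *Grhl3* was read at 78.1, 75.0, 66.6 and 73.2 FPKM in the libraries titled mutant 1 to 4, against 69.2, 73.5, 65.9 and 70.3 FPKM in those titled control 1 to 4 (0.07 by title, 95% interval -0.05 to 0.19, limma adjusted p = 0.378). *Cebpb* was read at 5.86, 5.72, 4.44 and 5.26 FPKM in the libraries titled mutant 1 to 4, against 4.55, 4.85, 4.42 and 3.31 FPKM in those titled control 1 to 4 (0.26 by title, 95% interval 0.01 to 0.51, limma adjusted p = 0.116). In 4 of the 9 genes (*Gata3*, *Cebpa*, *Tfap2a* and *Dlx3*) the E13.5 groups did not overlap, as in 28.1% of all genes tested, and the exact two-sided permutation test gave p = 0.0286 for each.

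The difference between the 2 stages was tested as a contrast, the P0 effect minus the E13.5 effect, over the 11858 genes tested at both stages. By title, 7 of the 9 genes differed, where 46.4% of all genes did. *Dlx3* (-1.49, limma adjusted p = 4.83e-08), *Gata3* (-1.09, 1.3e-07), *Cebpa* (-0.67, 7.95e-05) and *Tfap2a* (-0.42, 0.00279) had the lower effect at P0. *Klf4* (0.73, 0.00307), *Grhl3* (0.75, 0.00172) and *Zfp750* (0.70, 0.000282) had the higher effect at P0. The *Tfap2a* difference was -0.26 and did not pass with median-of-ratios scaling (adjusted p = 0.0585). *Cebpb* (0.08, 0.861) and *Ovol1* (0.58, 0.066) did not pass, but *Ovol1* passed with median-of-ratios scaling (0.73, adjusted p = 0.0284), with quantile normalization (0.65, 0.0372) and without P0 mutant 1 (0.67, 0.0387), P0 mutant 2 (0.67, 0.039) or the E13.5 library titled mutant 1 (0.66, 0.0459). By column name, 5 genes differed, where 32.8% of all genes did. They were *Dlx3* (-1.29, limma adjusted p = 7.92e-07), *Klf4* (0.71, 0.00599), *Grhl3* (0.89, 0.000872), *Ovol1* (1.38, 0.000574) and *Zfp750* (1.01, 2.05e-05). The differences of *Gata3* (0.17, 0.167), *Cebpa* (0.24, 0.0926) and *Tfap2a* (0.17, 0.201) turned their sign and did not pass. *Dlx3*, *Klf4*, *Grhl3* and *Zfp750* thus passed with the same sign under both groupings.

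**Figure D3:**
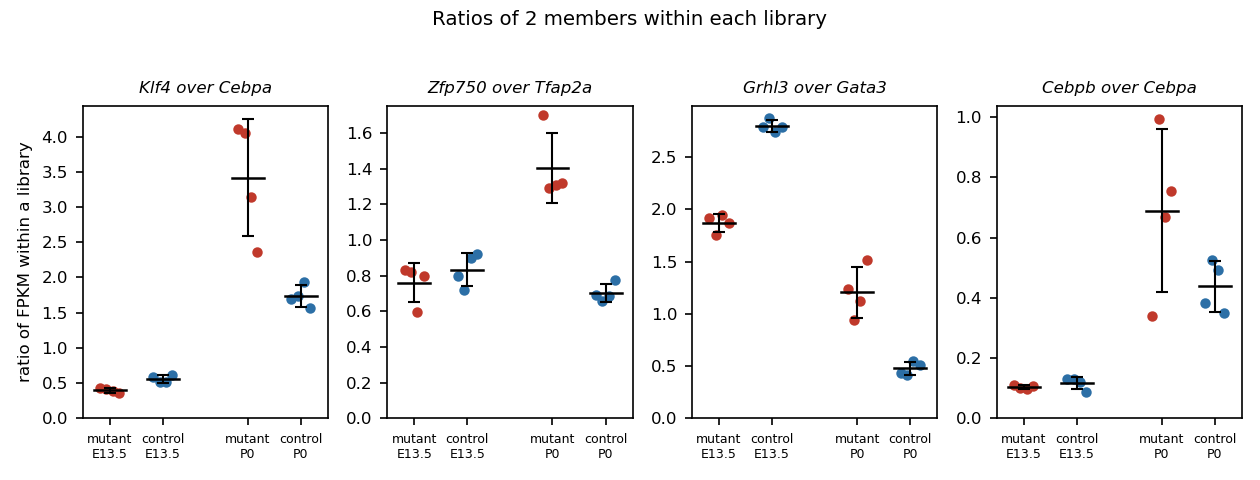
Ratio of the FPKM of 2 genes within each library (points), with mean and SD (bars, n = 4), for mutants (red) and controls (blue), grouped by title at E13.5. *Klf4* over *Cebpa* averaged 3.42 in P0 mutants and 1.74 in P0 controls, and 0.4001 in the libraries titled mutant and 0.557 in those titled control at E13.5.

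Ratios of 2 factors within a library do not depend on a scaling factor for the library. The 4 pairs were chosen after the values were seen and carry no test. *Klf4* over *Cebpa* averaged 3.42 (range 2.37 to 4.11) in P0 mutants and 1.74 (1.57 to 1.94) in P0 controls. *Zfp750* over *Tfap2a* averaged 1.40 (1.29 to 1.70) in P0 mutants and 0.703 (0.658 to 0.775) in P0 controls, so that the order of these 2 genes was turned in every library. *Grhl3* over *Gata3* averaged 1.204 (0.939 to 1.52) in P0 mutants and 0.478 (0.419 to 0.552) in P0 controls. *Cebpb* over *Cebpa* overlapped, at 0.689 (0.339 to 0.994) in P0 mutants and 0.438 (0.351 to 0.525) in P0 controls. At E13.5, *Klf4* over *Cebpa* averaged 0.4001 (0.356 to 0.435) in the libraries titled mutant and 0.557 (0.513 to 0.621) in those titled control, and *Grhl3* over *Gata3* averaged 1.87 (1.76 to 1.95) in the libraries titled mutant and 2.80 (2.74 to 2.87) in those titled control. The other 2 ratios overlapped at E13.5, with *Zfp750* over *Tfap2a* at 0.596 to 0.830 in the libraries titled mutant and 0.718 to 0.922 in those titled control, and *Cebpb* over *Cebpa* at 0.0986 to 0.112 in the libraries titled mutant and 0.0883 to 0.131 in those titled control.

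Close relatives of the 9 factors were read next. At P0, 3 of 18 tested relatives rose (*Grhl1*, *Dlx5* and *Tfap2c*), 8 fell and 7 did not pass, with a list median of -0.14, where the median of all genes was -0.15. With median-of-ratios scaling 5 rose and 7 fell, and with quantile normalization 6 rose and 8 fell. Without these scalings, 11.7% of all genes tested at P0 were higher and 30.7% lower. *Grhl1*, which binds the same sequence as *Grhl3* and like it rose, averaged 53.3 ± 5.997 FPKM in P0 mutants and 33.9 ± 3.83 FPKM in P0 controls (SD, n = 4 each), a log2 fold change of 0.64 (limma adjusted p = 0.00127). Their relative *Grhl2* went the other way, at 25.5 ± 4.92 FPKM in P0 mutants and 36.4 ± 2.16 FPKM in P0 controls (-0.51, limma adjusted p = 0.0118). *Ovol2*, a repressor of the *Ovol1* family, fell while *Ovol1* rose, at 2.69 ± 0.332 FPKM in P0 mutants and 7.09 ± 0.554 FPKM in P0 controls (-1.13, limma adjusted p = 3.6e-05). *Dlx2* fell with *Dlx3*, at 0.225 FPKM in P0 mutants and 3.16 FPKM in P0 controls, while *Dlx5* rose, at 5.39 ± 2.29 FPKM in P0 mutants and 2.36 ± 0.387 FPKM in P0 controls (0.86, limma adjusted p = 0.0149). *Tfap2e* fell (8.12 ± 0.617 FPKM in P0 mutants and 14.5 ± 1.21 FPKM in P0 controls), as did *Tfap2b*, and *Tfap2c* rose. *Grhl2*, *Dlx5*, *Tfap2b* and *Tfap2c* were named here after their values were seen.

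At E13.5, 4 of 14 tested relatives were higher in the libraries titled mutant (*Klf3*, *Klf5*, *Grhl1* and *Dlx5*), 2 were lower (*Klf9* and *Cebpz*) and 8 did not pass, with a median of 0.01 against 0.00 for all genes. Over all genes, 11.8% were higher by title and 13.4% lower. *Klf5*, a Krüppel-like factor of basal cells, averaged 50.3 ± 4.51 FPKM in the libraries titled mutant and 32.7 ± 2.51 FPKM in those titled control (0.60 by title, limma adjusted p = 0.000601). *Dlx5* averaged 17.1 ± 3.31 FPKM in the libraries titled mutant and 8.95 ± 1.95 FPKM in those titled control (0.86 by title, limma adjusted p = 0.00597). *Klf9* had a mean in the libraries titled mutant that was 0.475 times the mean of those titled control (-0.63 by title, limma adjusted p = 0.000795). By column name all of these signs turn.

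Among other regulators of epidermal differentiation, 5 of 44 tested rose at P0 (*Ppard*, *Myc*, *Ehf*, *Elf3* and *Fosl1*), 17 fell and 22 did not pass, with a median of -0.24. With median-of-ratios scaling 9 rose and 11 fell. Without that scaling, 11.7% of all genes tested at P0 were higher and 30.7% lower, with a median of -0.15. *Ppard*, a lipid-sensing nuclear receptor of keratinocytes, averaged 46.9 ± 3.14 FPKM in P0 mutants and 22.3 ± 1.21 FPKM in P0 controls (1.04, limma adjusted p = 1.54e-05). Of the genes that fell, *Msx1* had 0.0498 FPKM in P0 mutants and 2.93 FPKM in P0 controls, *Foxq1*, a gene of the hair, had 0.166 FPKM in P0 mutants and 2.48 FPKM in P0 controls, and *Pparg* had 0.0939 FPKM in P0 mutants and 2.62 FPKM in P0 controls. At E13.5, 15 of 37 were higher in the libraries titled mutant, 5 were lower and 17 did not pass (median 0.14). Of all genes tested at E13.5, 11.8% were higher by title and 13.4% lower, with a median of 0.0. *Trp63*, which encodes p63, the factor on which stratified epithelia depend, averaged 151 ± 3.01 FPKM in the libraries titled mutant and 123 ± 2.79 FPKM in those titled control (0.30 by title, limma adjusted p = 0.000212), and at P0 107 ± 28.1 FPKM in mutants and 145 ± 3.34 FPKM in controls (-0.48, limma adjusted p = 0.0574). *Pou2f3*, a POU domain factor of the suprabasal layers, averaged 28.7 ± 4.83 FPKM in the libraries titled mutant and 13.9 ± 0.361 FPKM in those titled control (0.98 by title, limma adjusted p = 0.000301). *Ppard* averaged 15.0 ± 1.23 FPKM in the libraries titled mutant and 22.1 ± 1.26 FPKM in those titled control (-0.53 by title, limma adjusted p = 0.000575), and the AP-1 gene *Jun* averaged 9.86 ± 1.43 FPKM in the libraries titled mutant and 23.2 ± 1.07 FPKM in those titled control (-1.17 by title, limma adjusted p = 5.19e-05).

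**Figure D4:**
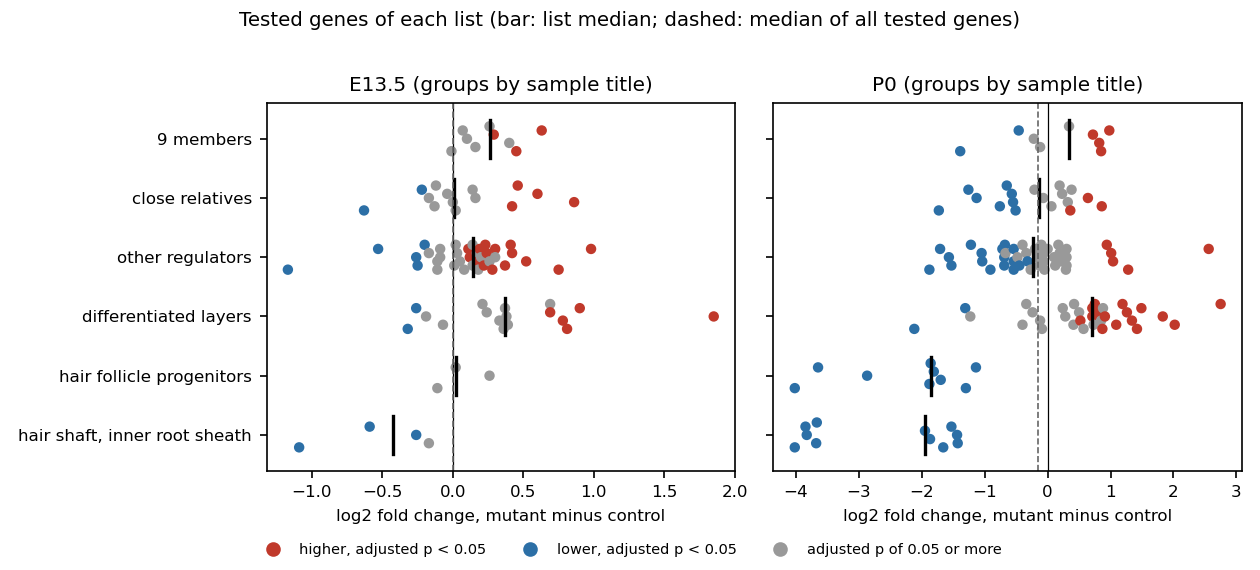
Log2 fold changes, mutant minus control, of the tested genes of each list (points; red higher, blue lower, grey not past the test), with the list median (bar) and the median of all tested genes (dashed), at E13.5 by title and at P0. At P0 the differentiated layers had a median of 0.71, and both hair lists, with medians of -1.86 and -1.95, held no higher gene.

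Genes of the differentiated layers, the program that these factors direct, were counted last. At P0, 16 of 33 tested rose, 2 fell and 15 did not pass, with a median of 0.71. With median-of-ratios scaling 19 rose and 2 fell. Without that scaling, 11.7% of all genes tested at P0 were higher and 30.7% lower, with a median of -0.15. *Tgm1*, the transglutaminase that cross-links the cornified envelope, averaged 73.0 ± 8.25 FPKM in P0 mutants and 20.1 ± 5.12 FPKM in P0 controls (1.83, limma adjusted p = 4.43e-05). *Abca12*, a lipid transporter of lamellar granules, averaged 11.6 ± 1.51 FPKM in P0 mutants and 4.54 ± 0.861 FPKM in P0 controls (1.19, limma adjusted p = 0.000148), and *Rptn*, which encodes repetin, 32.2 ± 9.18 FPKM in P0 mutants and 4.197 ± 2.31 FPKM in P0 controls (2.75, limma adjusted p = 0.000217). The 2 that fell were *Krt77* and *Tgm5*, another transglutaminase, at 7.596 ± 1.36 FPKM in P0 mutants and 20.2 ± 2.11 FPKM in P0 controls (-1.31, limma adjusted p = 5.44e-05). *Lor*, which encodes loricrin, averaged 192 ± 37.0 FPKM in P0 mutants and 184 ± 106 FPKM in P0 controls and did not pass.

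At E13.5, 5 of 17 tested genes of the differentiated layers were higher in the libraries titled mutant (*Krt1*, *Krt10*, *Dsg1a*, *Dsg1b* and *Calml3*), 2 were lower (*Casp14* and *Agpat5*) and 10 did not pass (median 0.37). Over all genes tested at E13.5, 11.8% were higher by title and 13.4% lower, with a median of 0.0. *Krt1*, a keratin of the spinous layer, averaged 80.6 ± 36.5 FPKM in the libraries titled mutant and 19.9 ± 3.43 FPKM in those titled control (1.85 by title, limma adjusted p = 0.00334). *Agpat5*, a lipid acyltransferase known as a target of *Gata3* in mouse epidermis, averaged 15.9 ± 0.603 FPKM in the libraries titled mutant and 19.3 ± 1.09 FPKM in those titled control (-0.26 by title, limma adjusted p = 0.0058), while *Gata3* was higher there. By column name these directions turn.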

How the data were processed

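RNA-Seq of back skin was analysed in 16 libraries, 4 mutant and 4 control at each of P0 and E13.5. The authors deposited FPKM values, 1 table per stage, made with QuickNGS. The submitters' processing notes name FastQC 0.11.5 and bcl2fastq (2.17.1.14 and 2.18.0.12), with mm10 as the build. An aligner was not given in the sources used here. Of 49452 genes, the tables gave 20695 a symbol, and a reference table gave 28503 more a name. The tables hold no read numbers, so depth was judged from low FPKM values, relative to control 1 of each stage. It was 0.951 to 1.112 in P0 mutants, 0.926 to 1.0 in P0 controls, 0.842 to 0.915 in E13.5 libraries titled mutant and 0.941 to 1.033 in those titled control. No 2 libraries held identical values.

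Groups follow titles and genotype tags. Per stage, genes that reached 1 FPKM in 4 or more of its 8 libraries entered limma 3.58.1 (mean trend, R 4.3.3) as log2(FPKM + 1), a scale that understates changes of low genes. The script was tested on simulated data. Summaries used pandas 2.3.3 and numpy 2.4.6 under Python 3.11.15, and figures matplotlib 3.10.9. Settings were changed singly. Values were scaled by median-of-ratios or quantile normalization, the pseudocount was set to 0.1, and the filter was dropped or raised to a mean FPKM of 5. The fit was run with array weights, without a mean trend, with sex or a replicate block, without each replicate, without label number 67 (E13.5) and with the *K14-Cre* controls only (P0). From each list other than the markers of other cell types, up to 4 genes with the smallest adjusted p were to be named, and others were named after their values were seen. The members and lists were chosen with earlier results of these data known. *Irf8*, *Krt85* and *Tubb3* were not analysed here.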

Additional observations from a re-analysis of the deposited data

Results flagged for a closer look

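In 1 of 36 groups of 4 libraries examined for the 9 genes, a library stood apart by Dixon's criterion, which chance exceeds in about 1 of 20 groups. In the E13.5 libraries titled control, *Zfp750* was at 46.6 FPKM in replicate 4 and at 42.3 to 42.7 FPKM in the others, a gap of 0.889 of the group's range. By title, the mutant effects of 7 genes differed between the stages in the limma contrast of P0 minus E13.5, by -1.49 for *Dlx3*, -1.09 for *Gata3*, -0.67 for *Cebpa*, -0.42 for *Tfap2a*, 0.75 for *Grhl3*, 0.73 for *Klf4* and 0.70 for *Zfp750* on the log2 scale. With the E13.5 libraries grouped by column name, the differences of *Gata3*, *Cebpa* and *Tfap2a* did not pass the threshold.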

How the results depend on the processing

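The 6 genes called at P0 kept their direction and their adjusted p under 0.05 in all 18 alternatives run for each (108 of 108 values). Over all genes, 3002 were called at P0 with only the *K14-Cre* controls, against 5515, and 1267 at E13.5 without the label number 67, against 3243. Fewer libraries entered both. Array weights called 5 members at E13.5, adding *Ovol1* (0.49, adjusted p = 0.0256) and *Cebpb* (0.33, adjusted p = 0.0488), and the cause was not tested. With 1 replicate left out, the members called ranged from 3 to 5 at E13.5 and from 6 to 7 at P0, the genes called from 2196 to 3283 at E13.5 and from 4401 to 6451 at P0, *Klf4* at E13.5 from -0.08 to 0.06 and the stage difference of *Cebpb* from -0.08 to 0.39. *Klf4* at E13.5 was 0.03 without the label number 67, *Tfap2a* at P0 was 0.04 with median-of-ratios scaling, and by column name the stage differences were 0.17 for *Gata3*, 0.24 for *Cebpa* and 0.17 for *Tfap2a*. None of these reversed values was past the threshold. *Cebpa* at P0 also passed with quantile normalization (-0.26, adjusted p = 0.0215) and with array weights (-0.27, adjusted p = 0.0016). With the replicate number as a block, 6 members were called at P0 and 4 at E13.5, adding *Ovol1* (0.40, adjusted p = 0.0199), with 5130 genes at P0 and 2766 at E13.5. Deviations of libraries of the same number from their group means correlated at -0.02 to 0.11 at P0 and at -0.01 to 0.07 at E13.5. At each stage 1 of 4 mutants correlated best with the control of its own number. With 4 libraries per group, these values cannot decide whether libraries were paired. Median-of-ratios scaling, quantile normalization, a pseudocount of 0.1 and no mean trend were added for the stage difference after seeing the data and called 7 to 8 members, with *Ovol1* gained under the first 2 (0.73 and 0.65) and *Tfap2a* lost under the first (-0.26, adjusted p = 0.0585).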

Other observations

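For each of the 9 genes, the gene with the most similar profile over the 16 libraries was sought among the 11858 genes tested at both stages, by Pearson correlation of log2(FPKM + 1). The coefficients carry no test, since the libraries fall into 2 stages and a difference between the stages is enough to give a high value. *Klf4* was closest to *Lmna* (0.997), *Cebpa* to *Pou2f3* (0.993), *Cebpb* to *Agpat2* (0.993), *Ovol1* to *2610528J11Rik* (0.986), *Dlx3* to *Mtmr7* (0.985), *Grhl3* to *Dph2* (0.974), *Zfp750* to *Vat1* (0.965), *Gata3* to *Pygl* (0.949) and *Tfap2a* to *Tradd* (0.937). *Lmna* encodes the A-type lamins of the nuclear envelope, and *Agpat2* and *Pygl* encode enzymes of lipid and glycogen metabolism.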
